A study of Mus musculus with 4 samples.

Results

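The regions described here are the peaks of Helios in mouse regulatory T cells (Treg cells) that had no summit of the related factor Eos close by. They were selected on measured values, as peaks of the wild-type anti-Helios list whose summit had no summit of the wild-type anti-Eos list within 100 bp on the same chromosome, over the 19 autosomes, X and Y. This left 202 of 469 Helios peaks (43.1%, 95% Wilson interval 38.7 to 47.6%). The other 267 had an Eos summit within 100 bp.

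Chromatin immunoprecipitation with sequencing (ChIP-seq) recovers the DNA that a protein is cross-linked to. The series holds 4 libraries, 1 for each pair of antibody and genotype. The 2 used here came from wild-type (WT) mice, 1 with the anti-Eos antibody 18H2 and 1 with the anti-Helios antibody D8W4X. The library over which each list's peaks were called is not named. If Eos knockout cells served as that control, fold, p and q would set wild-type against knockout cells, and a Helios peak would not stand for Helios binding as such. This was not tested. Splenic cells were taken with a CD4+CD25+ isolation kit and fixed in 1% formaldehyde for 10 min, with no further treatment named. Strain, age and sex of the mice and the number pooled were not given in the sources used here. The 2 libraries from mice with floxed Eos and Foxp3-Cre, which removes a floxed gene in cells that express Foxp3, were not analysed here. Selection by CD25 also takes up activated conventional T cells, and a list of peaks holds no expression values with which the cell type could be checked.

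Helios (gene Ikzf2) and Eos (Ikzf4) are transcription factors with zinc fingers, both of the Ikaros family. Members of the family bind DNA through N-terminal zinc fingers that recognise a GGGAA core, form homodimers and heterodimers through C-terminal zinc fingers, and can recruit corepressor and chromatin remodelling complexes. Both are expressed in Treg cells, and Helios is best known there for the stability of the Treg state.

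The regions were places in the genome, and the highest of them at gene starts are shown by sequence. RefSeq starts of GRCm38.p6 came with 250 bases before and 50 bases after each start, and 56 of 195 Helios peaks without a nearby Eos summit (28.7%) had their summit in such a window. The remaining 7 lay on a chromosome that these sequences did not cover. The 6 with the highest fold are printed 5′ to 3′ on the strand of the gene, with the transcription start at base 251. Capitals mark GGGAA, the Ikaros family core, and CCGGAA, a core bound by ETS factors, each on either strand (TTCCC and TTCCGG on the reverse).
Atp7a: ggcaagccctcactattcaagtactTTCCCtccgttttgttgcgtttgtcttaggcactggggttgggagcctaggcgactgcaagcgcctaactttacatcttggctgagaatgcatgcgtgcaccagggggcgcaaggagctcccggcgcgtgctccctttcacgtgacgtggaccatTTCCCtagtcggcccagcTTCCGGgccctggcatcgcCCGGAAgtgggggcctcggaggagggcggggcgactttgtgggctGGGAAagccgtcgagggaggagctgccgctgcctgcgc
Fhit: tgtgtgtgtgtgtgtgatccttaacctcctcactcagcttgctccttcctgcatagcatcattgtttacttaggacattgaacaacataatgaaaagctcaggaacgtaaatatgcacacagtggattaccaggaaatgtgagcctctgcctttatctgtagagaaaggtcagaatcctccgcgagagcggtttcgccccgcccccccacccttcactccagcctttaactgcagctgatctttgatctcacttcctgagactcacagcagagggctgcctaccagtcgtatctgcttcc
Arid1a: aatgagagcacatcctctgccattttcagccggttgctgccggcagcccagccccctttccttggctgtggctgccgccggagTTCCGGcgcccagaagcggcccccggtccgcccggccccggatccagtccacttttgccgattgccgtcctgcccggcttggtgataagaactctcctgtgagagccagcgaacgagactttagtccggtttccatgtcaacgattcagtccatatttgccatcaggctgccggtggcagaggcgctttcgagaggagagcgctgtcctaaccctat
Parg: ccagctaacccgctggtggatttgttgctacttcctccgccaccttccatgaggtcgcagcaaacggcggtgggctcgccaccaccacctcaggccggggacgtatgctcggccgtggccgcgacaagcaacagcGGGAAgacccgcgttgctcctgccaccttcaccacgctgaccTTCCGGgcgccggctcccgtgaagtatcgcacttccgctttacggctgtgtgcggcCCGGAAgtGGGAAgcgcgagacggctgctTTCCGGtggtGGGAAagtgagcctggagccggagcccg
Ppip5k2: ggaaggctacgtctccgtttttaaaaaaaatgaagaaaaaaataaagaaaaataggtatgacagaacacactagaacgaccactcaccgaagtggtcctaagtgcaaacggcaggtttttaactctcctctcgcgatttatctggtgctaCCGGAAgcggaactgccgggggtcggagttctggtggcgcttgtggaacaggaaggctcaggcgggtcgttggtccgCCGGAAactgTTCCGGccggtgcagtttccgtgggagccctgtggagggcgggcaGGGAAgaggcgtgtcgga
Gne: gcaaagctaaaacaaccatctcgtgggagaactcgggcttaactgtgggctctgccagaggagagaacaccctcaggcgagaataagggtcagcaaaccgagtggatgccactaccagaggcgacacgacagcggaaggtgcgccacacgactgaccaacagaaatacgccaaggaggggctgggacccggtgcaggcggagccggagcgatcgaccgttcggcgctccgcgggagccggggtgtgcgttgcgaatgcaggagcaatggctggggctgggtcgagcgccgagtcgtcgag
The window of Atp7a, which encodes a copper-transporting ATPase, is chrX:106026974-106027273 on the plus strand. Its summit fell on base 213, and it holds 3 Ikaros family cores, the nearest 28 bp from the summit, and 2 ETS cores. That of Fhit, a gene for a dinucleotide hydrolase at a fragile site, is chr14:10453409-10453708 on the minus strand, with the summit on base 273 and no match to either core. That of Arid1a, which encodes a subunit of the BAF (SWI/SNF) chromatin remodelling complex, is chr4:133756720-133757019 on the minus strand, with the summit on base 109, 1 ETS core and no GGGAA. That of Parg, the gene for poly(ADP-ribose) glycohydrolase, is chr14:32201699-32201998 on the plus strand, with the summit on base 232, 3 Ikaros family cores, the nearest 10 bp away, and 3 ETS cores. That of Ppip5k2, which encodes an inositol pyrophosphate kinase, is chr1:97770043-97770342 on the minus strand, with the summit on base 244, 1 Ikaros family core 39 bp away and 3 ETS cores. That of Gne, which encodes the enzyme that starts sialic acid synthesis, is chr4:44072668-44072967 on the minus strand, with the summit on base 264 and neither core. Thus 3 of these 6 windows held a GGGAA and 4 a CCGGAA.

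Over all 56 windows that held a summit without a nearby Eos summit, GGGAA occurred in 71.4%, against 78.2% of the 78 windows that held another Helios summit and 63.0% of all 21262 windows of protein-coding genes. CCGGAA occurred in 46.4%, 42.3% and 18.7%. These windows were richer in GC than most, with a median GC content of 63.8%, against 63.0% for the windows of the other Helios summits and 56.3% for all. Of the 56, 80.4% were CpG-rich (GC of at least 50% and an observed over expected CpG of at least 0.6), against 79.5% and 45.1%. Over the 9599 CpG-rich windows of the genome, GGGAA occurred in 63.3% and CCGGAA in 31.3%. For the 56 windows the Wilson interval of GGGAA was 58.5 to 81.6%, which includes the shares of all and of CpG-rich windows. That of CCGGAA was 34.0 to 59.3%, which includes neither. These intervals cover counting error only. The longer TGGGAA was found in 32.1% of the 56 (interval 21.4 to 45.2%), 26.9% of the 78, 24.5% of all windows and 19.5% of the CpG-rich ones. It lies within GGGAA matches and is not a separate count.

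The remaining motifs searched, on both strands, included GGGCGG, the GC box of SP and KLF factors, in 60.7% of the 56 windows, 70.5% of the 78 and 46.2% of all. CCAAT (NF-Y) gave 30.4%, 39.7% and 38.2%, TGTGGT (RUNX) 8.93%, 14.1% and 14.97%, and CACGTG (E-box) 14.3%, 10.3% and 7.84%. The AP-1 site TGANTCA was in 1.79% of the 56 windows, in 0% of the 78 and in 6.99% of all. GCGCATGC, part of the NRF1 site, was in 8.93%, 3.85% and 3.51%. TGACGTCA (CRE) gave 0%, 1.28% and 2.23%, AAGATGGCG (YY1) 3.57%, 2.56% and 1.83%, and ACTACAATT, part of the ZNF143 site, 1.79%, 3.85% and 0.508%. The CpG-rich windows of the genome are the nearer comparison in base composition. In these GGGCGG occurred in 76.8%, CCAAT in 36.1%, TGTGGT in 9.21%, CACGTG in 11.6% and TGANTCA in 3.24%. GCGCATGC occurred there in 6.44%, TGACGTCA in 3.74%, AAGATGGCG in 3.47% and ACTACAATT in 0.594%. Where the summit and 50 bases on either side lay inside the window, GGGAA stood within them at 18 of 39 summits without a nearby Eos summit (46.2%) and at 33 of 56 of the others (58.9%). The Wilson intervals were 31.6 to 61.4% and 45.9 to 70.8%. In a stretch of that length ending at the start GGGAA occurred in 27.8% of all windows. That stretch is matched to the summits neither in place nor in base composition, so the shares are not directly comparable. These matches describe letters and were not tested as sites.

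The rule set a lower limit on the distance to an Eos summit, and the distances above it spanned from overlapping peaks to peaks with no Eos summit for several megabases. The nearest Eos summit lay at up to 200 bp for 37 of the 202 peaks and at over 200 and up to 500 bp for 8. Only 5 more had one within 1000 bp, 22 at 1 to 10 kb, 37 at 10 to 100 kb, and 93 (46.0%) had none within 100 kb. An Eos peak overlapped the Helios peak by at least 1 bp in 42 cases (20.8%, Wilson interval 15.8 to 26.9%), so for these the summits were offset within touching peaks. The remaining 160 (79.2%) overlapped no Eos peak. All 267 other Helios peaks overlapped one, and 208 of them (77.9%) had an Eos summit within 50 bp.

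Just beyond the limit were peaks at Lat (the nearest to the limit, fold 8.19), Oard1 (102 bp, 6.69), Psd2 (102 bp, 6.32), Arhgef1 (105 bp, 9.45) and Fam187b (105 bp, 5.70). Just within it were those at Dad1 (92 bp, 6.09), Amz2 (93 bp, 6.74), S100a2 (96 bp, 6.27), Ppm1h (98 bp, 5.54) and Ccdc88c (99 bp, 9.30). These are named by the nearest gene end, which lay 44147 bp away for Psd2, 13152 bp for Fam187b and 7925 bp for Dad1. The Ppm1h summit lay inside that gene but 123028 bp from its nearest end, beyond the 100 kb used for assignment. The summit named S100a2 lay inside S100a3, 31 bp downstream of a start of S100a3. At the other extreme, the peak 28 bp from the start of Caprin1, which encodes an RNA-binding protein of stress granules, had its nearest Eos summit 10051383 bp away (fold 7.66). It was followed by peaks at Qser1 (9031967 bp, fold 6.90), Rab10, a small GTPase of membrane traffic (7956310 bp, 5.48), Zfp174 (6899928 bp, 7.40) and Kpna4, which encodes an importin alpha (6430386 bp, 6.60). A distance says where the nearest listed Eos peak is. The smallest -log10 q in the Eos list was 2.08, and weaker places were not listed.

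**Figure D1:**
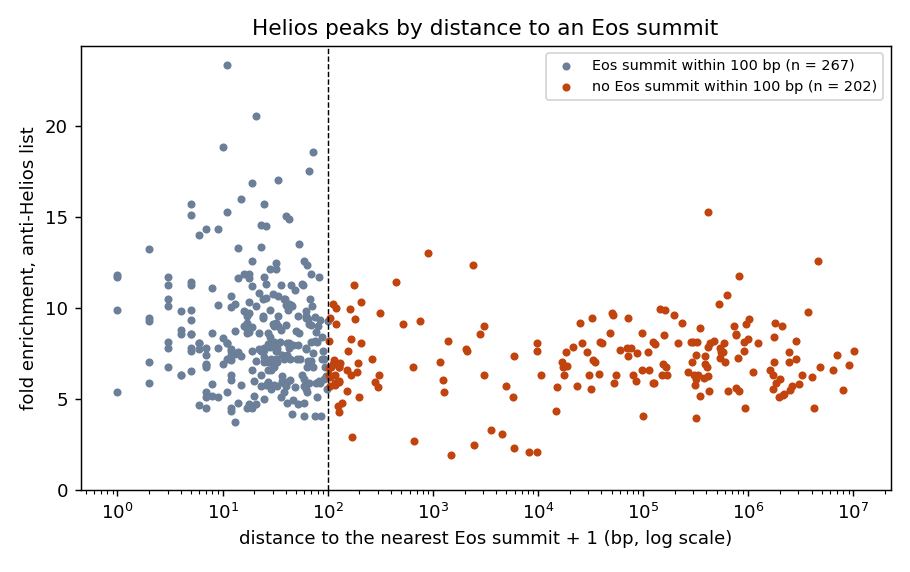
Fold of each Helios peak against the distance to the nearest Eos summit on the same chromosome. Peaks beyond the 100 bp limit spread out to 10051383 bp, and their folds reach 15.2, against 23.3 for the peaks within it.

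Helios peaks without a nearby Eos summit were lower than the other Helios peaks. Fold is the authors' enrichment over a background whose library the labels do not name. It had a median of 7.02 (95% order-statistic interval 6.77 to 7.37, quartiles 6.00 and 8.12, range 1.93 to 15.2), against 8.10 (7.79 to 8.60, quartiles 6.67 and 10.1, range 3.72 to 23.3) for the other 267. The intervals of the medians did not overlap. A fold of 10 or more was reached by 11 of 202 (5.45%, Wilson interval 3.07 to 9.49%) and by 71 of 267 (26.6%, 21.7 to 32.2%). Of the 15 highest folds in the Helios list 1 belonged to these peaks, and of the 50 highest 7. They made up 17 of the 118 Helios peaks with the highest -log10 q (14.4%) and 77 of the 118 with the lowest (65.3%). Peaks of 1 library are not replicates, and the intervals cover counting error only.

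The depth behind these peaks was small. The number of fragments at the summit, recovered from fold and p-value, had a median of 15 (range 9 to 94), against 20 (range 10 to 124) for the other Helios peaks. The median width was 160.5 bp against 188 bp, and the median -log10 q 6.13 against 9.69. Height differed little with the distance to Eos. The median fold was 6.84 for the 42 peaks that overlapped an Eos peak (interval 6.32 to 7.66), 6.83 for the 67 others with an Eos summit within 100 kb (6.32 to 7.56) and 7.21 for the 93 beyond 100 kb (6.77 to 7.66). These 3 intervals overlap. At the 42 overlapping peaks the nearest Eos peak had a median fold of 7.58 (quartiles 6.09 and 8.72), beside 7.31 over the whole Eos list, which has its own background.

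**Figure D2:**
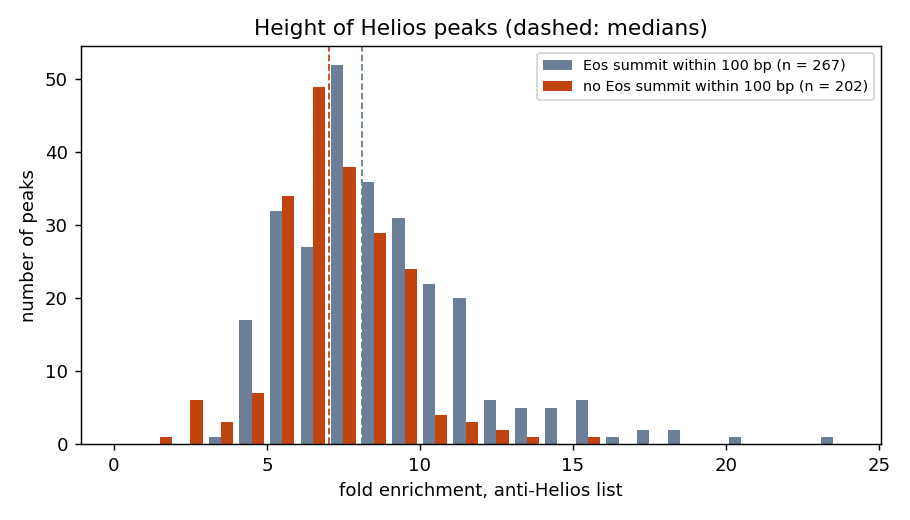
Distribution of fold, in the authors' units, for the 202 Helios peaks without an Eos summit within 100 bp and for the 267 others. The median is 7.02 for the former and 8.10 for the latter, and the tail above 10 is held mostly by the latter.

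**Figure D3:**
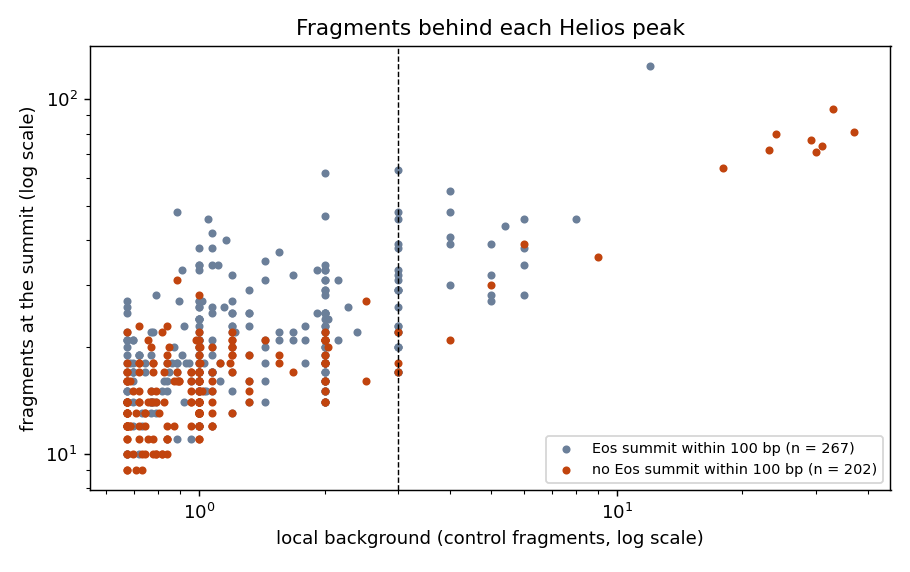
Fragments recovered at each Helios summit against the local background in control fragments. Most peaks sit at about 1 control fragment, and the peaks with a background above 3 are set apart, among them 12 without a nearby Eos summit.

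The highest of these peaks lay inside Btbd19, which encodes a BTB domain protein, 1442 bp from its end (chr4:117120530-117120778, fold 15.2, 31 fragments), with the nearest Eos summit 412120 bp away. The next was inside the predicted gene Gm34296, 990 bp from one end (chr4:133814079-133814215, fold 13.0, 28 fragments), 893 bp from an Eos summit. That Eos summit lay 2 bp from another Helios summit in the gene (fold 11.7). The peak 38 bp upstream of the start of Atp7a came next (chrX:106027099-106027302, fold 12.6, 23 fragments), with no Eos summit within 4597816 bp. Arid1a held the fourth, inside the gene and 428 bp upstream of an alternative start (chr4:133754313-133754498, fold 12.4, 22 fragments, Eos 2386 bp away). It also held the tenth, 142 bp upstream of its start (chr4:133756782-133757029, fold 10.2, 18 fragments), which overlapped an Eos peak with its summit 112 bp away. A peak 31150 bp outside Ptpdc1, a phosphatase gene, had a fold of 11.7 and lay 820679 bp from Eos.

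The sixth lay inside Rhof, a gene for a small GTPase, with the nearest gene end that of Tmem120b at 10884 bp (fold 11.4). It overlapped an Eos peak whose summit was 443 bp away. The peak 22 bp downstream of an internal start of Fhit had a fold of 11.3, with an Eos summit at 178 bp. The peak 141 bp from the start of Ubl3, a ubiquitin-like gene, had a fold of 10.7 and lay 631891 bp from Eos. At Aldh7a1, an aldehyde dehydrogenase gene, the fold was 10.3 with an Eos summit at 205 bp. The peak at Parg, 19 bp upstream of the start, had a fold of 10.2 and its nearest Eos summit at 531916 bp. The last 4 of the 15 were assigned to Ssbp4, Pik3r1, Acot11 and Asap1. That of Ssbp4 lay 1200 bp outside the gene (fold 9.99, Eos at 119 bp) and that of Pik3r1 99 bp from the start (9.96, 161 bp). That of Acot11, an acyl-CoA thioesterase gene, lay 22929 bp outside and 408 bp from the noncoding gene Gm31065 (9.96, 143083 bp). Asap1 encodes a GTPase-activating protein of Arf, and its peak lay inside the gene, 99169 bp from the nearest end (9.90, 162063 bp). Pik3r1 encodes the regulatory subunit of class IA phosphoinositide 3-kinase. Of these 15, 6 overlapped an Eos peak, 2 had an Eos summit within 100 kb without overlap, and 7 had none within 100 kb. Their summits rested on 18 to 31 fragments.

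By position, no difference from the other Helios peaks was resolved. For a protein-coding gene, either annotated end counted, and a summit within 1 kb of one was found for 106 of 202 (52.5%, Wilson interval 45.6 to 59.3%), a summit elsewhere inside such a gene for 58 (28.7%), and one outside for 38 (18.8%). For the other Helios peaks the shares were 49.8%, 29.6% and 20.6%. The differences were 2.66 percentage points near an end (Newcombe interval -6.43 to 11.7), -0.875 inside (-9.03 to 7.49) and -1.79 outside (-8.89 to 5.63), and each interval includes 0. The intervals still allow a difference of up to 11.7 points near an end. The table used gave no exons, so exonic and intronic positions were not told apart.

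Where strand was given, the near ends were nearly all gene starts. Of the 106, 84 were at a start, 2 at the opposite end and 20 at genes whose strand the table did not give. Counted over all listed starts, alternative ones included, 103 of 195 summits (52.8%) lay within 1 kb of one, against 122 of 265 (46.0%) for the other Helios peaks. Their median position was -6 bp from the start (quartiles -108.5 and 103 bp), against -37.5 bp for the others. Of the 103, 54 were upstream (52.4%) and 49 within 100 bp of the start (47.6%), against 60.7% and 49.2% of the 122.

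**Figure D4:**
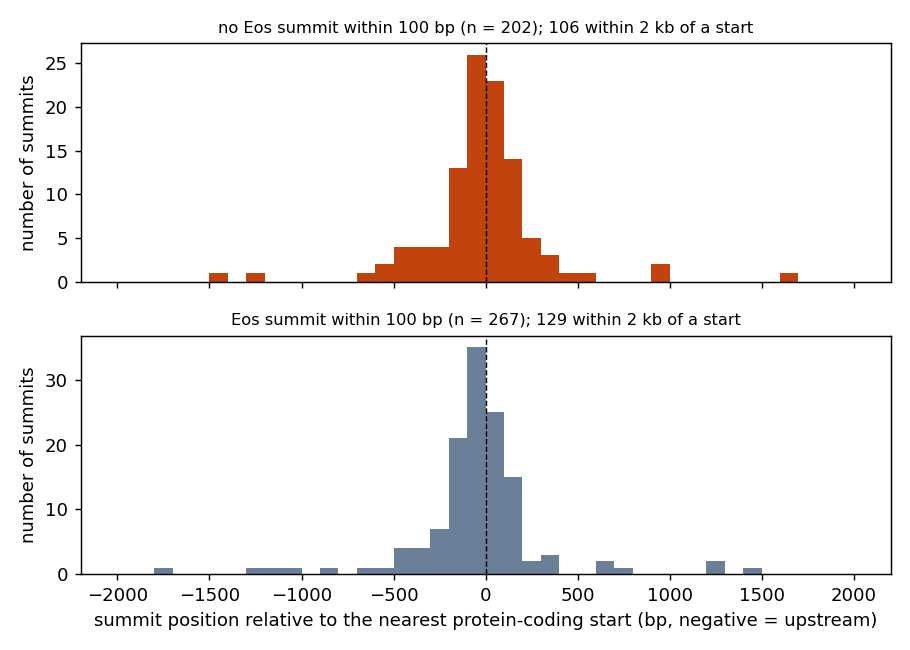
Position of Helios summits relative to the nearest listed start, drawn out to 2000 bp on either side, negative upstream. Both sets centre close to the start. Over the summits within 1 kb of a start the medians are -6 bp (103 summits without a nearby Eos summit) and -37.5 bp (122 others).

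Several of the peaks counted as inside a gene stood at an internal start. This held for 19 of the 58, where the summit lay within 1 kb of a listed alternative start. Among them were Pik3cd (45 bp downstream), the gene of the catalytic p110 delta subunit of phosphoinositide 3-kinase, Gne (13 bp downstream), Dgkz (64 bp upstream) and Csk (49 bp downstream). The other Helios peaks were not counted in this way. Some of them stood so too, as at Ldb1 (37 bp upstream) and Smg9 (61 bp downstream), so it is not particular to these peaks. At 9 of 195 summits (4.62%) protein-coding genes started on both strands within 1 kb, against 17 of 265 (6.42%), a difference of -1.80 points (Newcombe interval -6.02 to 2.78). Parg and Timm23, a mitochondrial import gene, were such a pair, as were Gin1 and Ppip5k2, and Oard1 and Nfya, a subunit gene of NF-Y. These pairs were named after their values were seen.

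The near-end share was also set out by the distance to Eos, the value that chose the peaks, in a split made after the data were seen. Of the 93 peaks more than 100 kb from an Eos summit, 59 were near a gene end (63.4%, Wilson interval 53.3 to 72.5%), against 47 of the 109 nearer ones (43.1%). The difference was 20.3 points (Newcombe interval 6.51 to 33.0), and against the other Helios peaks it was 13.6 points (1.87 to 24.5). Of the 12 peaks with a background above 3 control fragments, 11 were among the nearer ones. Without the 12 the far minus nearer difference was 17.2 points (3.05 to 30.4). Peaks of 1 library are not replicates and the split uses the selecting distance, so these intervals are a description and no test. The nearer ones were not between the far ones and the other Helios peaks, of which 49.8% were near an end, so the shares followed no order with distance. Among peaks with a -log10 q of at least 5 the difference between far and nearer ones was 12.9 points, with an interval of -4.31 to 29.1 that includes 0. Examples far from Eos and within 1 kb of a listed start of the same gene were Caprin1, Kpna4, Atp7a and Parg.

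By the nearest end within 100 kb, 193 of the 202 peaks were assigned to 182 of the 21883 protein-coding genes. An Eos summit was assigned to the same gene for 76 of the 193 (39.4%, Wilson interval 32.8 to 46.4%), at 67 genes. The 10 highest of these were at Gm34296, Arid1a (both peaks), Tmem120b, Aldh7a1, Ssbp4, Pik3r1, Sypl, Arhgef1 and Kcnn4. The Eos summits counted include those of Eos peaks that overlap the Helios peak. Among the 10 this held for all but Gm34296 and the Arid1a peak 2386 bp from Eos. The 39.4% is therefore not a share with a separate Eos place at the gene. A share without the overlapping peaks was not counted. Kcnn4 encodes the calcium-activated potassium channel KCa3.1 of T cells, and 4 Eos summits were assigned to it. The Helios peak 28 bp from its start had a fold of 9.41, 181 bp from the nearest of them. Kcnn4 also held a higher Helios peak with an Eos summit within 100 bp (fold 12.6, 59 bp). At Sypl, a synaptophysin-like gene, the fold was 9.70 and the offset 314 bp.

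Only 6 genes held 2 or more of these peaks. Pik3cd had 2 (folds 8.53 and 9.62) and no Eos summit within 100 kb of either, the nearest being 157956 and 198387 bp away. Arhgef1, the gene of a guanine nucleotide exchange factor of lymphocytes, had 2 (6.77 and 9.45), with Eos summits 127 and 105 bp away. Mob1b, a Hippo pathway gene, had 2 close to its start (6.77 and 6.32, 44 and 573 bp downstream) and no Eos summit. Arid1a and Gm34296 also had 2 each, the second at Gm34296 with a fold of 5.41. Sfi1 had 7, described with the high backgrounds below.

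T cell receptor signalling runs from the receptor through kinases and the adaptors LAT and SLP-76 to phospholipase C gamma and on to calcium and diacylglycerol. Of the 47 listed genes, 43 were in the table used and 8 held a Helios peak without a nearby Eos summit, and 7 of the other Helios peaks fell to the list. At Grap2, whose product GADS links LAT to SLP-76, the peak lay 133 bp from the gene start (fold 9.01, 21 fragments), 728888 bp from Eos. At Lat itself it lay 163 bp from the outermost start and 26 bp downstream of a listed one (8.19, 19 fragments), with an Eos summit just over 100 bp away. Lcp2, which encodes SLP-76, held one 17247 bp downstream of the start (8.11, 17 fragments), 125142 bp from Eos.

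Downstream of the adaptors, the peak in Plcg1, which encodes phospholipase C gamma 1, was 11066 bp downstream of the start (fold 6.10, 11 fragments), with Eos 2018876 bp away. Dgkz encodes a diacylglycerol kinase, which removes the second messenger diacylglycerol, and its peak (8.19, 19 fragments) was 1402 bp from an Eos summit. Among negative regulators, the ubiquitin ligase gene Cbl had a peak 90 bp from its start (7.38, 17 fragments), 71658 bp from Eos. Csk, the kinase that inhibits Src family kinases, had one 8027 bp inside the gene (5.70, 18 fragments), 4973 bp from Eos, and also held a Helios peak with an Eos summit within 100 bp (fold 10.5). Adaptors, enzymes and inhibitors of the pathway were thus all among these peaks, with none higher than a fold of 9.01.

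Cytokine signalling genes held 3, beside 4 of the other Helios peaks. Ifnar1, a chain of the type I interferon receptor, had a peak 54 bp from its start (fold 8.60), 48507 bp from Eos. The feedback inhibitor gene Socs3 had one 968 bp from the outermost start and 2 bp upstream of a listed start (6.77), 644 bp from Eos, and Cish one 10204 bp beyond its end (6.22), 105 bp from Eos. AP-1 and immediate early genes, which respond within minutes to hours of stimulation, held 4, beside 4 others. These were Jund (7.87, 2252 bp upstream), Fos (6.32, 8717 bp beyond its end), the phosphatase gene Dusp1 (6.32, 337 bp from its start, 1709582 bp from Eos) and the antiproliferative gene Btg2 (5.65, 114 bp, 15110 bp from Eos).

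Treg core genes held 3, beside 1 of the other Helios peaks. Tnfrsf18, which encodes the costimulatory receptor GITR, had a peak 3883 bp upstream (fold 7.66), 155 bp from an Eos summit and 619 bp from the small nuclear RNA gene Gm25982. Izumo1r, the gene of the folate receptor FR4, had one 22860 bp away (6.83), and Cd83, an activation marker, one 61589 bp away (6.31). Assignments over such distances name the nearest gene only. Ets1, a T cell transcription factor gene, held a peak 25881 bp inside (5.87), 118 bp from Eos, against 5 other Helios peaks at genes of that list. S1pr1, the receptor by which lymphocytes leave lymphoid organs, had one 58 bp from a gene end (5.56), 32191 bp from Eos. Another Helios peak, 27591 bp from S1pr1, had an Eos summit 36 bp away (7.41). Effector T helper genes had 0, which allows a share of up to 1.49% (3 counts of 202), against 3 of the other Helios peaks.

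In all, 20 of the 202 peaks (9.90%) fell to the 245 genes of the 8 T cell lists, against 25 of 267 (9.36%) of the other Helios peaks. Of the 20, 8 were near a gene end, 5 inside a gene and 7 outside. An Eos peak overlapped 4 of them, 10 more had an Eos summit within 100 kb, and 6 had none. Their folds reached 9.01 at most, on 10 to 21 fragments, so none was among the 15 highest.

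Other groups held few. Genes named Zfp, most of which encode C2H2 zinc finger proteins, held 7 of these peaks and 3 of the other Helios peaks, over 367 genes. They were Zfp212 (fold 8.10), Zfp62 (8.07), Zfp113 (7.87), Zfp174 (7.40, at the end of that gene and 72 bp upstream of a start of Zfp597), Zfp213, Zfp94 and Zfp668. All 7 were near a gene end, as were 52.5% of the 202, and none overlapped an Eos peak, as held for 79.2% of the 202. No Eos summit was assigned to these 7 genes, against 39.4% of all assigned peaks with one at their gene, but 13 Eos peaks fell to 11 other genes of the list. Vesicle traffic genes held 4 and 8, the 4 being Rab18 (7.56), Vps33b (7.02), Rab10 (5.48) and Rab8a (4.81). Chromatin regulators held 2 and 6, both of the 2 at Arid1a, and the corepressor list 1 and 0, at Ncor1 (7.25, 22 bp from its start, 804109 bp from Eos). Ints3 (6.94) and Ints4 (4.05), subunits of Integrator, which cleaves nascent transcripts, stood against 2 others. Splicing genes held 1 and 1 (Hnrnpf, 7.02). Translation factors held 1 and 0, nearest Eif2d with the summit inside Rassf5 (5.87). Heat shock genes held 0 and 4, mitochondrial ribosomal and proteasome genes 0 and 1 each, and respiratory chain and histone genes 0 and 0. With counts this small no difference between the sets was read.

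The marker lists of other cells were short, and their counts are given without a reading. B cell markers (14 genes), CD8 and NK markers (11) and erythroid markers (10 in the table) had 0 of these peaks, and myeloid markers (16) had 1, at a distance of 84848 bp from Cebpb (fold 6.49). The other Helios peaks had 0 at all of these lists.

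A small set of peaks rested on many fragments over a high background. A local background above 3 control fragments was found at 12 of the 202 (5.94%) and at 16 of the other 267 (5.99%), a difference of -0.0519 points (Newcombe interval -4.37 to 4.68). Of the 12, 7 lay at Sfi1, a centrosomal gene, on chromosome 11 between 3128497 and 3163027. Their folds were 1.93 to 3.07, the 7 with the lowest fold in the Helios list apart from Scaf8, on 64 to 94 fragments over a background of 18 to 37. The peak assigned to Scaf8 had a fold of 2.90 on 80 fragments. It lay 30692 bp outside that gene and 97 bp from the transcribed pseudogene Pisd-ps2. The others are named by the nearest gene end only. These were Pisd at 2169 bp (fold 3.32) and Mest at 56491 bp, with the summit inside Copg2 (3.96). The next were 4930467E23Rik at 31168 bp (4.64) and Gm52481 on the Y chromosome at 56513 bp (5.13). The peak assigned to 4930467E23Rik was 25 bp from the pseudogene Gm10060. At Sfi1, the peak with a fold of 2.10 was 165 bp from the transcribed pseudogene Pisd-ps1. Without the 7 at Sfi1 the median fold was 7.02, and without all 12 it was 7.03. The near-end share without all 12 was 55.3%. At the remaining 190 peaks only 1 had more than 30 fragments, that at Btbd19.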

How the data were processed

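The 2 wild-type peak lists (anti-Helios, anti-Eos) were used. The 2 knockout libraries were not analysed here, and with 1 library a group there was no replicate error. Per the submitters' processing notes, the tools included BWA 0.7.1, cutadapt 4.4, SAMtools 1.17, deepTools 3.5.1 and Picard, and the builds mm10 and GRCm38.p6. How peaks were called, and over which control libraries, is not given in the sources, so what a peak was compared with is unknown. Each deposited line gave the authors' ratio (fold over background), -log10 p-value and -log10 q-value, a score, and the summit offset as another number. This score carried no further information, being 10 times the -log10 q cut to a whole number for 100% of peaks.

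Fragments were recovered by solving a MACS-like formula for fold and p, which gave both for 100% of peaks within a relative tolerance of 0.0001. The formula is an inference. The fragment scale was 0.895 for Helios and 1 for Eos. Total reads per library are not given in these lists. The Helios list had a median of 18 fragments per peak (9 to 124) and the Eos list 14 (7 to 106).

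Summits were assigned to the nearest end of 21883 protein-coding genes of RefSeq (GRCm38.p6) within 100 kb, either end. Strand and promoter sequences (250 bases before to 50 after a start) came from a RefSeq table of the same build, which held 17491 of these genes and none of chromosome 18. Shares have 95% Wilson intervals and differences Newcombe intervals, read against 0. For the split by distance to Eos the intervals are a description only. Python 3.11.15, pandas 2.3.3, SciPy 1.17.1 and statsmodels 0.14.6 were used, and the steps were tested on simulated data. The regions, the 25 gene lists and the rule for named genes were chosen with earlier results of these data known. The rule took the 15 highest folds, the T cell list members, genes with 2 or more peaks and the 5 on either side of the limit. It also took the 5 farthest from Eos and the 10 highest with an Eos summit assigned to the same gene. Up to 4 genes of every other list and 6 promoters completed it. Alternatives varied the summit window, q limits, distances and the gene set. Peaks at a few genes that the rule names are not reported here.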

Additional observations from a re-analysis of the deposited data

How the results depend on the processing

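The number of peaks ran from 261 with a 50 bp window to 152 with 1000 bp. It was 160 when any overlap counted, 230 with an Eos -log10 q of at least 5, 190 without high backgrounds, and 128 with a Helios -log10 q of at least 5, where the median fold was 7.96. The near-end share was 45.5% within 500 bp and 59.4% over all annotated genes. Its difference from the other Helios peaks changed sign with a 50 bp window (-0.00368 points, interval -9.03 to 9.03), an Eos -log10 q of at least 5 (-0.176), ends within 2000 bp (-0.506) and among Helios peaks with a -log10 q above the median (-5.51, -19.2 to 8.40). Among those below it was 12.7 points (-0.284 to 24.97). In none of its 13 alternatives did the interval exclude 0, and the cause of the sign changes was not tested. With assignment within 10 kb, 12 peaks fell to the T cell lists and 31.5% of assigned peaks had an Eos summit at the gene. The far minus nearer difference, with its 7 alternatives, was chosen after the data were seen. Among the 128 peaks with a Helios -log10 q of at least 5 it was 12.9 points, with an interval of -4.31 to 29.1 that includes 0. In the other 6 alternatives the interval lay above 0. Those 6 reuse largely the same peaks under shifted bounds, so they add no independent support, and none of the 7 is a test. No paired analysis was possible because each group holds 1 library. Few fragments a peak limit every fold, and weaker Eos places were not listed.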
